A study of Mus musculus with 18 samples.

Results

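Glutathione and antioxidant defence was followed through 10 genes chosen by name for their place in this defence, out of 21923 genes in the count table. They were the enzymes and the transporter that make and recycle glutathione (Gclc, Gclm, Gss, Slc7a11 and Gsr), 4 enzymes that remove peroxides or conjugate reactive compounds (Gpx4, Prdx6, Cat and Gstm1) and the transcription factor NRF2 (Nfe2l2). They were named by function, with no threshold on a measured value, and all 10 were found in the table and passed the filter on low counts.

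Glutathione is a tripeptide of glutamate, cysteine and glycine, and it is the most abundant small thiol of the brain. In the cortex, astrocytes take up cystine, make glutathione and export it, and neurons use the exported peptide as a source of cysteine for their own. NRF2 is held in the cytoplasm and degraded with the help of KEAP1. When reactive compounds modify KEAP1, NRF2 enters the nucleus and binds antioxidant response elements near genes of glutathione synthesis and detoxification. Reduction of oxidised glutathione draws on NADPH, which glucose metabolism in the pentose phosphate pathway can supply.

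The libraries came from an experiment that asked how astrocytes lacking the glucose transporter GLUT1 (Slc2a1) differ from control astrocytes in the messages held on their ribosomes. Conditional knockout mice (cKO, labelled GLUT1 flox/flox;GLAC +/wt) carried floxed Slc2a1 alleles and a tamoxifen-inducible Cre recombinase (CreERT2) expressed from the GLAST (Slc1a3) locus. Control mice (labelled WT, mouse type GLAC +/wt) carried the same Cre and no floxed allele. All were male C57BL/6 mice, and cortex was taken. Both groups received intravenously an AAV that expresses the EGFP-tagged ribosomal protein L10a from a human GFAP promoter after Cre recombination, and both received tamoxifen 7 days later, over 5 days at 8 to 10 weeks of age. RNA was collected 60 days after tamoxifen. Tagged ribosomes were immunoprecipitated (translating ribosome affinity purification, Astro-TRAP), which is meant to enrich RNA of cells that recombined and expressed the tag. Enrichment over unprecipitated RNA was not measured here. The study reports it in both genotypes, for Gfap by qPCR and for astrocyte markers by RNA-seq. The libraries also held markers of other cell types. The IP libraries of 3 control mice (AstroTRAP_11, _15 and _19) and 4 cKO mice (AstroTRAP_1, _5, _9 and _17) were used. The other 2 labelled control IP samples and all unprecipitated (Background) samples were not analysed here. The study states that it excluded a sample of very low read count and IP samples with high expression of neuronal genes. It does not say whether those 2 were among them.

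Total estimated counts ranged from 12570309 to 40734343 per library, so that 3 counts corresponded to 0.0736 to 0.239 CPM, the counts of a gene scaled to the total of its library. Levels are given as CPM after TMM scaling, which sets libraries to a common level over genes of moderate change. The targeted gene, Slc2a1, is counted over its whole length. Its level was 59.5 ± 2.02 CPM (SD, n = 3) in controls and 59.0 ± 2.30 CPM (SD, n = 4) in cKO. The log2 fold change was -0.013 (SE 0.12, 95% interval -0.28 to 0.25). The floxed exons are a part of the gene and were not counted on their own here. The whole-gene value was not taken as a check of the labels, and why it showed no drop was not tested. The study itself reports lower Slc2a1 in cKO IP samples, by qPCR and by RNA-seq reads over part of its exons. All 10 astrocyte markers examined were detected, with a summed level between 28613 and 56089 CPM. The neuron marker sum lay between 2513 and 3758 CPM, that of oligodendrocytes between 475 and 909.8 CPM, that of microglia between 69.9 and 138 CPM and that of endothelial and mural cells between 41.8 and 78.8 CPM.

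For NRF2 target genes the sequence of interest is the antioxidant response element. Its core, TGACNNNGC, was searched on both strands of the 250 bases before each RefSeq transcription start (mouse build GRCm38.p6). Start sites were listed for 7 of the 10 genes, and none was listed for Gclc, Gsr or Prdx6. For Slc7a11 the whole window lay inside the annotated gene, so the bases before that gene were not searched. Some of the Gpx4 windows also lay inside its gene. The core was found before Nfe2l2 itself and before Gclm, the modifier subunit of the enzyme that starts glutathione synthesis. It was present in 10.2% of all 32851 windows of this length, so a match describes the letters and not a bound site. The stretches outside the annotated genes are shown for these 2 genes, 5′ to 3′ on the strand of the gene, with the core in capitals. The core of Gclm lies on the opposite strand (TGACGGTGC) and is therefore read as its reverse complement.
Nfe2l2, chr2:75704664-75704913, minus strand: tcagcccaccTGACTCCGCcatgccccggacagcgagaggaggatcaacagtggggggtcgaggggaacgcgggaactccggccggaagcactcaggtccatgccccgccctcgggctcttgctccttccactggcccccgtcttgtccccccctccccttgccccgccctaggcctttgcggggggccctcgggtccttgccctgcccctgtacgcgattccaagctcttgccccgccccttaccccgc
Gclm, chr3:122245307-122245486, plus strand: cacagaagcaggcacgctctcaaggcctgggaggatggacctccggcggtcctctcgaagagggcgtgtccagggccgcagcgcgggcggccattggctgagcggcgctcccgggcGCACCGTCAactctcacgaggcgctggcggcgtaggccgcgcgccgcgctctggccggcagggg

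None of the 10 genes passed the test for a difference between cKO and control. In the edgeR quasi-likelihood fit, adjusted by Benjamini-Hochberg over 13296 genes, 0 of 10 passed an adjusted p of 0.05 and each adjusted p was 0.9996. Of all genes, 0.0451% passed (6 genes), 0.0376% as higher and 0.00752% as lower in cKO. At an unadjusted p under 0.05 the count was again 0 of 10, where 2.58% of all genes passed. In none of the 10 did the CPM of the cKO libraries separate from those of the controls, which was the case for 5.11% of all genes. The log2 fold change was above 0 in 6 genes and below 0 in 4, with a median of 0.0062 against 0.012 over all genes tested. The 95% intervals of all 10 genes lay between a fold of 0.518 and 1.64, so changes within these bounds remain possible for single genes. In bulk RNA of this kind, fewer contributing cells and less RNA per cell cannot be told apart.

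**Figure D1:**
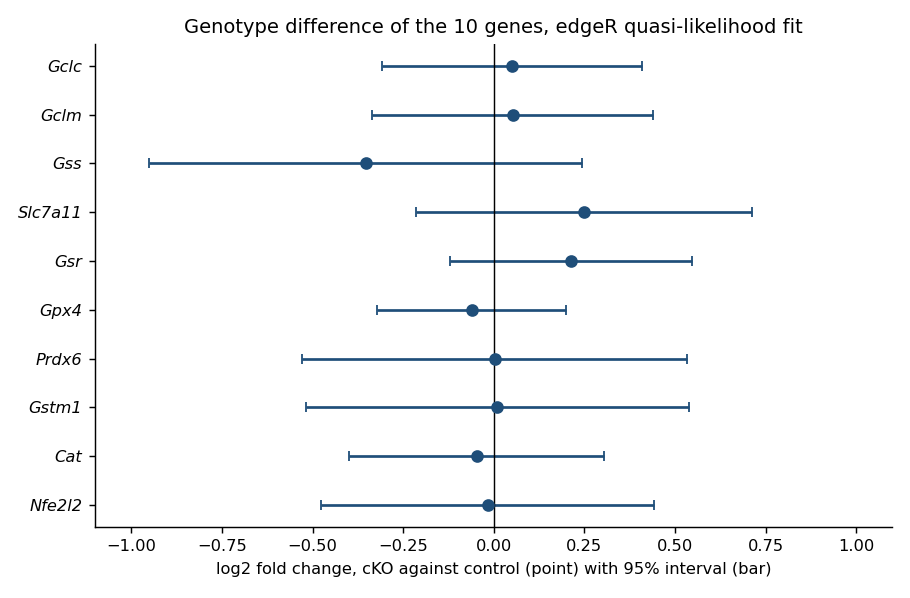
Log2 fold change of each of the 10 genes, cKO against control (point), with its 95% interval (bar) from the edgeR quasi-likelihood fit on 3 control and 4 cKO libraries. Every interval includes 0, and the points run from -0.35 for Gss to 0.25 for Slc7a11.

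Cystine supply and glutathione synthesis were read from 4 genes. Slc7a11 (chr3:50364936-50499087, GRCm38.p6) encodes xCT, the subunit of the cystine/glutamate exchanger that imports cystine. Its control libraries measured 48.9, 35.2 and 58.2 CPM (AstroTRAP_11, _15 and _19, the order used for every gene) and its cKO libraries 69.8, 41.5, 55.7 and 58.5 CPM (AstroTRAP_1, _5, _9 and _17). The highest value was a cKO library and the lowest a control, and the ranges overlapped. The means were 47.4 ± 11.6 CPM and 56.4 ± 11.6 CPM, a log2 fold change of 0.25 (SE 0.21, 95% interval -0.21 to 0.71). Slc3a2, the heavy chain that carries xCT to the membrane, had a log2 fold change of -0.11 (SE 0.16).

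Gclc (chr9:77754535-77794489) and Gclm (chr3:122245487-122267215) encode the catalytic and the modifier subunit of glutamate-cysteine ligase, the rate-limiting enzyme of the pathway. Gclc measured 30.5, 26.2 and 29.3 CPM in controls and 28.0, 27.1, 35.5 and 28.2 CPM in cKO. A single cKO library, AstroTRAP_9, stood above a narrow band formed by the other 6. The log2 fold change was 0.051 (SE 0.16). Gclm measured 141, 157 and 109 CPM in controls and 165, 135, 156 and 107 CPM in cKO, with a log2 fold change of 0.052 (SE 0.18). Its lowest libraries were one of each genotype, AstroTRAP_19 and AstroTRAP_17, so the subunits did not follow the same order over the libraries.

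Gss (chr2:155563181-155592810), glutathione synthetase, adds glycine in the second step. Control libraries measured 31.8, 29.3 and 19.7 CPM and cKO libraries 25.1, 20.8, 26.3 and 12.2 CPM. Both groups contained a low library, and the lowest of all was AstroTRAP_17. The means were 26.9 ± 6.39 CPM and 21.1 ± 6.37 CPM, and the log2 fold change of -0.35 (SE 0.27, 95% interval -0.95 to 0.24) was the furthest from 0 among the 10 genes. It rested in part on single libraries, being -0.17 without AstroTRAP_17 and -0.53 without AstroTRAP_19. With 165 to 1252 counts per library, Gss held the lowest single count of the 10 genes, though Gclc had fewer in AstroTRAP_11 and AstroTRAP_15.

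Gsr (chr8:33653238-33698162), glutathione reductase, returns oxidised glutathione to its reduced form with NADPH. The control libraries measured 32.2, 32.6 and 42.2 CPM and the cKO libraries 42.0, 40.1, 43.6 and 39.6 CPM. The cKO values lay in a narrow band, and AstroTRAP_19 was the only control within it. The means were 35.7 ± 5.68 CPM and 41.3 ± 1.83 CPM, with a log2 fold change of 0.21 (SE 0.15, 95% interval -0.12 to 0.55). Without AstroTRAP_19 the log2 fold change was 0.35, and the groups of Gsr (higher in cKO) and of Gss (lower in cKO) no longer overlapped. That made 2 of 10 genes, where 10.6% of all genes did not overlap in the same 6 libraries, and neither passed the adjusted threshold.

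Peroxides are removed by 3 of the genes. Gpx4 (chr10:80047166-80056439), the selenium-containing glutathione peroxidase that reduces lipid hydroperoxides in membranes and restrains ferroptosis, was the steadiest. Its control libraries measured 741, 695 and 730.1 CPM and its cKO libraries 739.8, 705, 660.5 and 663 CPM. The highest library was 1.12 times the lowest. The means were 722 ± 24.1 CPM and 692 ± 37.9 CPM, with a log2 fold change of -0.061 (SE 0.12, 95% interval -0.32 to 0.20), the tightest interval of the 10.

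Prdx6 (chr1:161240112-161251210) encodes an astrocyte-enriched peroxiredoxin that uses glutathione as reductant and also repairs oxidised phospholipids. It measured 992, 1026.5 and 732 CPM in controls and 1353, 687, 945 and 688 CPM in cKO. The cKO libraries held both the highest and the lowest values. Their means of 917 ± 161 CPM and 918 ± 314 CPM gave a log2 fold change of 0.0024 (SE 0.24). Cat (chr2:103453904-103485153), the peroxisomal catalase that splits hydrogen peroxide without glutathione, measured 190.3, 217 and 170.1 CPM in controls and 238, 174, 177 and 157 CPM in cKO. AstroTRAP_1 was highest, as for Prdx6, AstroTRAP_17 was lowest, and the log2 fold change was -0.047 (SE 0.16).

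Gstm1 (chr3:108012250-108017973), a mu-class glutathione S-transferase abundant in astrocytes, couples glutathione to electrophiles. Its control libraries measured 4449, 4489.6 and 3119.5 CPM and its cKO libraries 5849, 3197, 4108 and 3034 CPM. AstroTRAP_1 stood above all others, and 1 control and 2 cKO libraries formed the low end. The means were 4019 ± 779 CPM and 4047 ± 1291 CPM, a log2 fold change of 0.0099 (SE 0.24). Gstm1 belongs to a cluster of related genes, and of the counts given to 7 Gstm genes it took 62.2% to 66.3%, with Gstm5 taking 32.9% to 36.8%. Reads shared between these genes could be divided differently by another counter. Gstm5 had a log2 fold change of 0.084 (SE 0.21), so both large members of the cluster had small differences. Prdx6b, a copy of Prdx6, held 0 to 8 counts per library and was not tested.

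Nfe2l2 (chr2:75675513-75704663) measured 78.7, 93.5 and 58.9 CPM in controls and 87.9, 57.7, 94.3 and 64.8 CPM in cKO. Each group spanned nearly the same range, with means of 77.0 ± 17.4 CPM and 76.2 ± 17.7 CPM. The log2 fold change was -0.017 (SE 0.21, 95% interval -0.48 to 0.44). NRF2 is regulated mostly at the level of the protein, which ribosome-bound RNA does not measure. Its inhibitor Keap1 had a log2 fold change of 0.14 (SE 0.13).

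**Figure D2:**
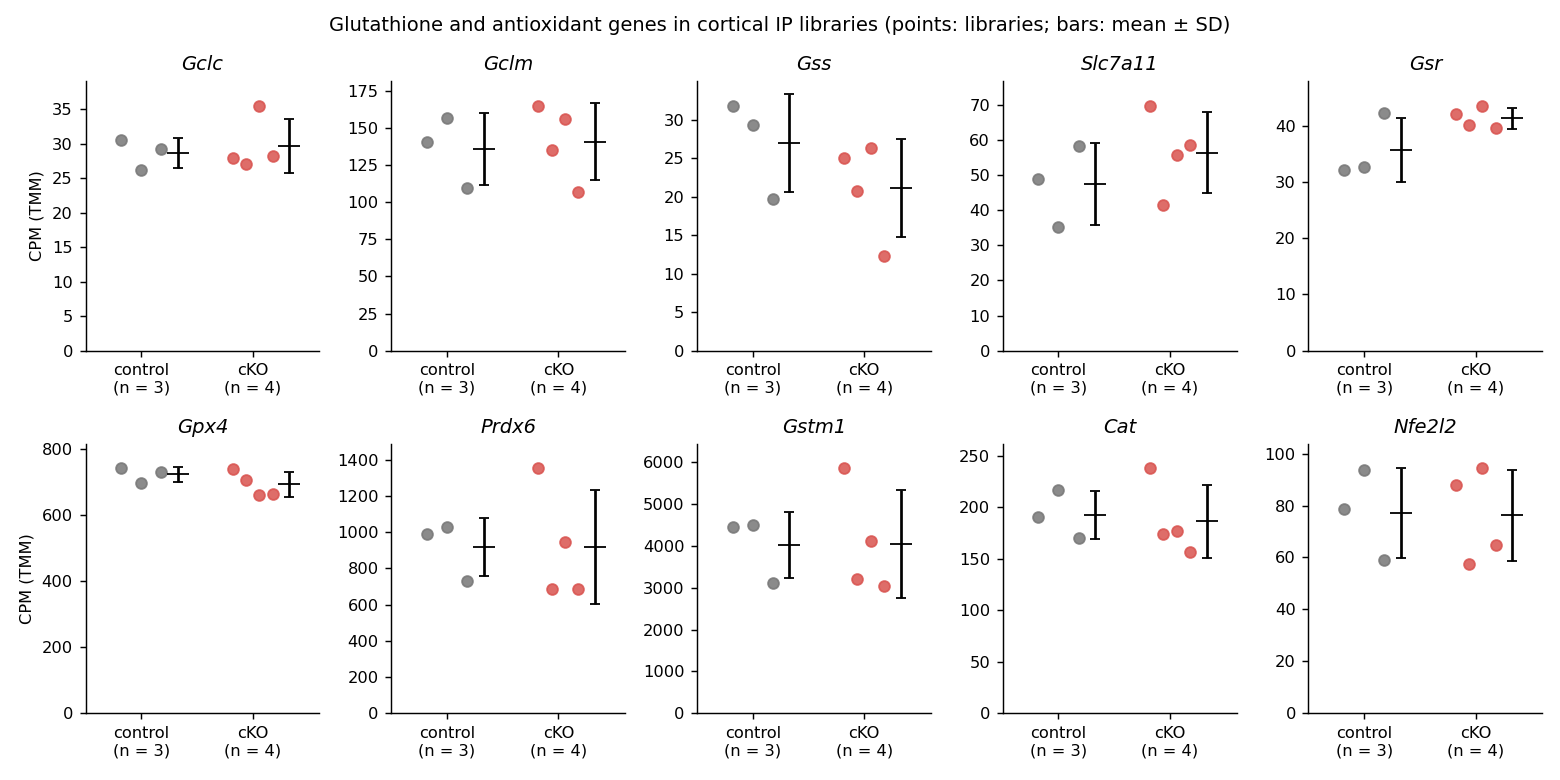
CPM (TMM-scaled) of the 10 genes in each IP library, control (grey, n = 3) and cKO (red, n = 4), with the mean and SD of each group as bars and a vertical axis from 0 for each gene. The groups overlap for every gene, with Gpx4 lying between 660.5 and 741 CPM and Gss between 12.2 and 31.8 CPM.

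The 10 genes varied between libraries to different extents. The SD of log2 CPM over the 7 libraries was 0.070 for Gpx4, 0.14 for Gclc, 0.18 for Gsr, 0.21 for Cat and 0.25 for Gclm. It reached 0.31 for Nfe2l2, 0.33 for Slc7a11, 0.35 for Gstm1, 0.36 for Prdx6 and 0.46 for Gss. The median of the 10 was 0.28, beside 0.33 over all genes tested.

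Part of this variation had a common order. The summed astrocyte markers were lowest in AstroTRAP_17, _19 and _5 (28613, 28868 and 29914 CPM) and highest in AstroTRAP_1 (56089 CPM), with 37294 to 44041 CPM in the other 3 libraries. The low libraries include both genotypes. The same 3 libraries were the lowest for 6 of the 10 genes (Nfe2l2, Gclm, Gss, Gstm1, Prdx6 and Cat), as they were for 10.2% of all genes tested and for 4 of the 10 astrocyte markers (Aldoc, Aqp4, Gjb6 and Slc1a2). AstroTRAP_1 was the highest library for 5 (Gclm, Slc7a11, Gstm1, Prdx6 and Cat), as it was for 11.5% of all genes. Gpx4, Gclc, Gsr and Slc7a11 had other low libraries. This order was noticed in these libraries and is given as a description, without a test.

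Microglia, neuron, and endothelial and mural markers were higher in the 3 libraries where astrocyte markers were low. Microglia markers summed to 116 to 138 CPM in the 3 low libraries and to 69.9 to 87.4 CPM in the other 4, and neuron markers to 3615 to 3758 CPM against 2513 to 3056 CPM. Endothelial and mural markers summed to 54.2 to 78.8 CPM against 41.8 to 52.6 CPM, and the oligodendrocyte sums of the 3 libraries (702 to 909.8 CPM) overlapped those of the other 4 (475 to 835 CPM). AstroTRAP_17 was also the library with the fewest counts. The part of cell composition and depth in the order of the libraries was not tested. Between genotypes, the median log2 fold change was -0.023 for the astrocyte markers and -0.36 for the 10 oligodendrocyte markers, of which 0 were above 0 and 0 passed the adjusted threshold. With the oligodendrocyte markers as a covariate, 3 of the 10 genes (Gss, Nfe2l2 and Prdx6) had an unadjusted p under 0.05, all lower in cKO, beside 14.9% of all genes, and 0 passed the adjusted threshold. Without the covariate, the median was 0.033 for neuron markers, 0.11 for microglia markers and 0.38 for the 7 endothelial and mural markers tested.

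**Figure D3:**
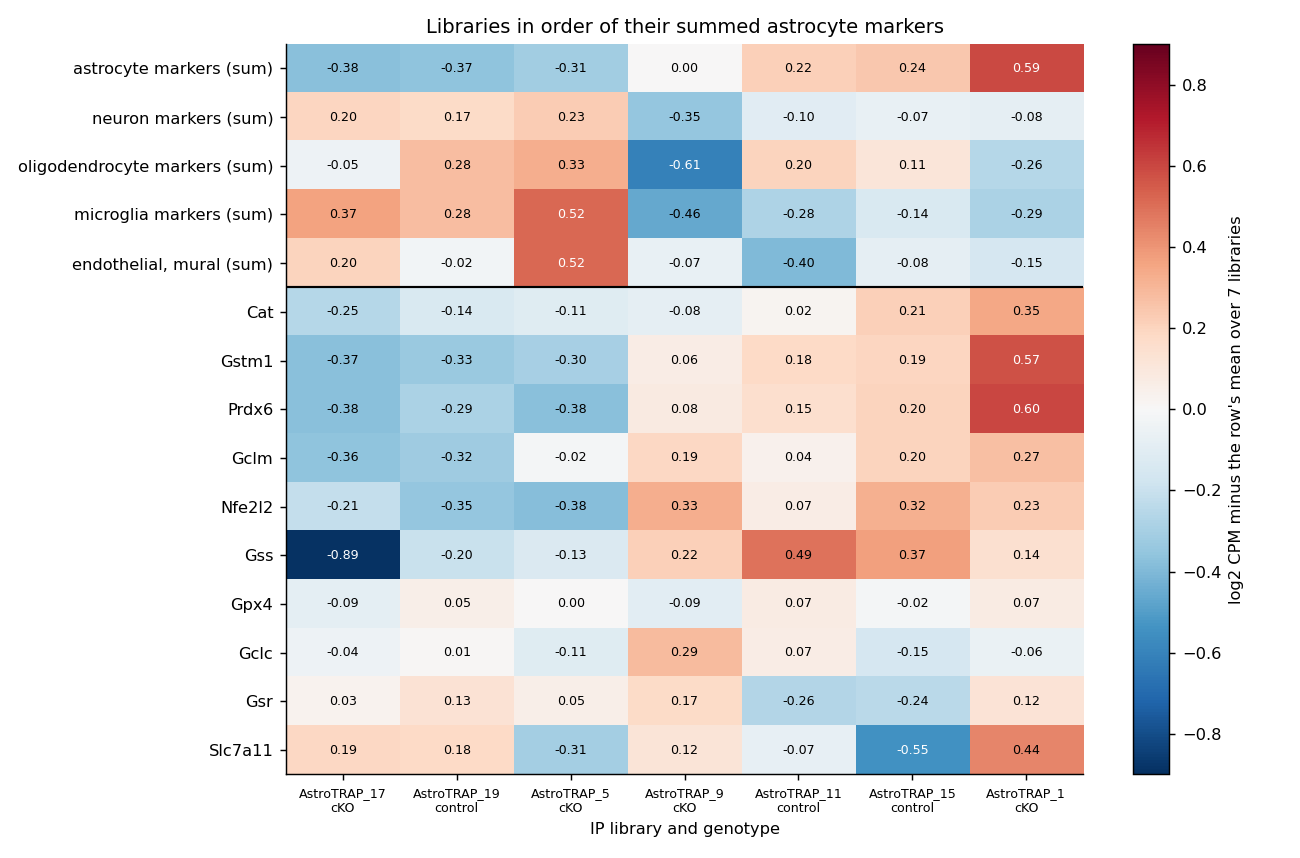
Log2 CPM minus the mean of each row over the 7 IP libraries, with the libraries ordered from left to right by their summed astrocyte markers, for 5 summed marker lists (upper rows) and the 10 genes (lower rows). Cat, Gstm1 and Prdx6 run from blue (low) at the left to red (high) at AstroTRAP_1, where they reach 0.35, 0.57 and 0.60, whereas Gpx4 stays near 0.

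The genes were therefore also expressed relative to 3 astrocyte genes, Aldh1l1, Gja1 and Aqp4. On that scale the SD of log2 CPM fell for 6 genes and rose for 4, and it fell for 27.2% of all genes. Because the scaling divides by astrocyte genes, this describes the order of the libraries again and is no separate evidence of it. It went from 0.21 to 0.057 for Cat, from 0.35 to 0.19 for Gstm1, from 0.36 to 0.21 for Prdx6 and from 0.25 to 0.15 for Gclm. Nfe2l2 (0.31 to 0.23) and Gss (0.46 to 0.34) fell less. The SD rose from 0.070 to 0.19 for Gpx4, from 0.14 to 0.30 for Gclc, from 0.18 to 0.35 for Gsr and from 0.33 to 0.44 for Slc7a11. For Cat, the ratio of the highest to the lowest library was 1.11 on this scale and 1.52 under TMM. The scaling moved the median log2 fold change of all genes from 0.012 to 0.12 and that of the 10 genes to 0.11, and 0 of the 10 passed the threshold on it.

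**Figure D4:**
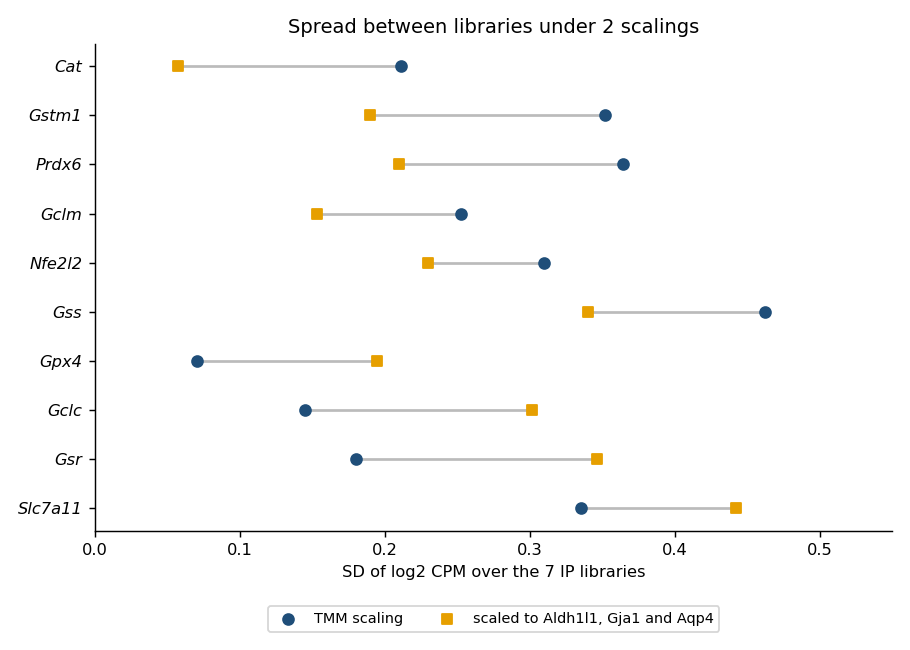
SD of log2 CPM over the 7 IP libraries for each gene under TMM scaling (blue circles) and after scaling to Aldh1l1, Gja1 and Aqp4 (orange squares). The 6 upper genes move left, Cat to 0.057, and the 4 lower genes move right, Slc7a11 to 0.44.

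Around the 10 genes, 135 genes of glutathione metabolism and antioxidant defence were listed by function, and 122 were tested. Of these, 0 passed the adjusted threshold (edgeR quasi-likelihood test, Benjamini-Hochberg) in either direction, 1 had an unadjusted p under 0.05 (2.58% of all genes did) and 3 did not overlap between genotypes (5.11% of all genes did not). Both shares of the list genes lay below that background. Their median log2 fold change was -0.0040. Among 17 genes of glutathione synthesis, breakdown and cystine supply, 10 were above 0 and 7 below, with a median of 0.033. They included Chac1, Chac2, Ggct and Ggt1, which act in glutathione breakdown, so these counts do not describe synthesis alone. Among 16 genes of glutathione and thioredoxin reduction and NADPH supply, 6 were above and 10 below, with a median of -0.063. The 5 glutathione peroxidases had a median of 0.029, the 14 peroxiredoxins and thioredoxins 0.011 and the 5 superoxide dismutases and catalase -0.032. The 13 genes of NRF2 and its regulators had a median of 0.0058 and the 19 listed as NRF2 targets -0.086. Those 19 included Gclm and Slc7a11 of the 10 genes, and lists could share genes, such as Txnrd1. The 13 genes tied to lipid peroxides, other than Gpx4, had a median of -0.016. Beside genes of defence they included Acsl4 and Lpcat3, which favour lipid peroxidation. The 4 metallothioneins and ceruloplasmin had a median of 0.18 and the 4 exporters of glutathione and cysteine -0.078.

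Of the NRF2 targets outside the 10, 0 passed the adjusted threshold. Nqo1, a quinone reductase, averaged 18.9 ± 5.76 CPM in controls and 13.9 ± 4.07 CPM in cKO, a log2 fold change of -0.44 (SE 0.29). This was -0.19 without AstroTRAP_15, -0.63 without AstroTRAP_19 and -0.88 with the oligodendrocyte covariate (edgeR unadjusted p of 0.00536, adjusted p of 0.18). Hmox1, the inducible haem oxygenase, averaged 24.0 ± 4.74 CPM and 25.1 ± 10.7 CPM, a log2 fold change of 0.063 (SE 0.32). Prdx1, a thioredoxin-dependent peroxiredoxin, had a log2 fold change of 0.048 (SE 0.20). Its position (chr4:116685599-116700000) is near Slc2a1 (chr4:119108745-119137330), where the floxed allele and the DNA linked to it cannot be told apart from the deletion. None of the 10 genes is on chromosome 4.

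The glutathione S-transferases had a median log2 fold change of -0.020 over 19 genes, and they held the list gene with the lowest p. Gstt1 (chr10:75783813-75798584), a theta-class transferase, measured 84.3, 64.2 and 78.0 CPM in controls and 53.0, 52.3, 59.3 and 50.5 CPM in cKO. Every cKO library lay below every control. The means were 75.5 ± 10.3 CPM and 53.8 ± 3.82 CPM, a log2 fold change of -0.49 (SE 0.14, 95% interval -0.79 to -0.19). The edgeR quasi-likelihood test gave an unadjusted p of 0.00461 and an adjusted p of 0.9996, so Gstt1 did not pass the threshold over all genes. The log2 fold change stayed between -0.59 and -0.39 under the alternatives run. Its adjusted p ranged from 0.184 to 1.00 and its edgeR unadjusted p reached 0.116 when scaled to astrocyte genes.

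The other genes without overlap were Gsta4 and Bach2. Gsta4, an alpha-class transferase that conjugates lipid aldehydes, averaged 92.2 ± 3.05 CPM in controls and 81.0 ± 6.23 CPM in cKO, a log2 fold change of -0.19 (SE 0.12). Bach2, a transcriptional repressor of the BACH family, averaged 4.22 ± 0.419 CPM and 6.49 ± 0.571 CPM, a log2 fold change of 0.62 (SE 0.32). Bach2 (chr4:32238413-32586109) is on the same chromosome as Slc2a1 but far from it. The other 6 tested list genes of chromosome 4 had log2 fold changes of -0.25 to 0.048, and 0 of them were without overlap. The edgeR adjusted p of both was 0.9996.

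**Figure D5:**
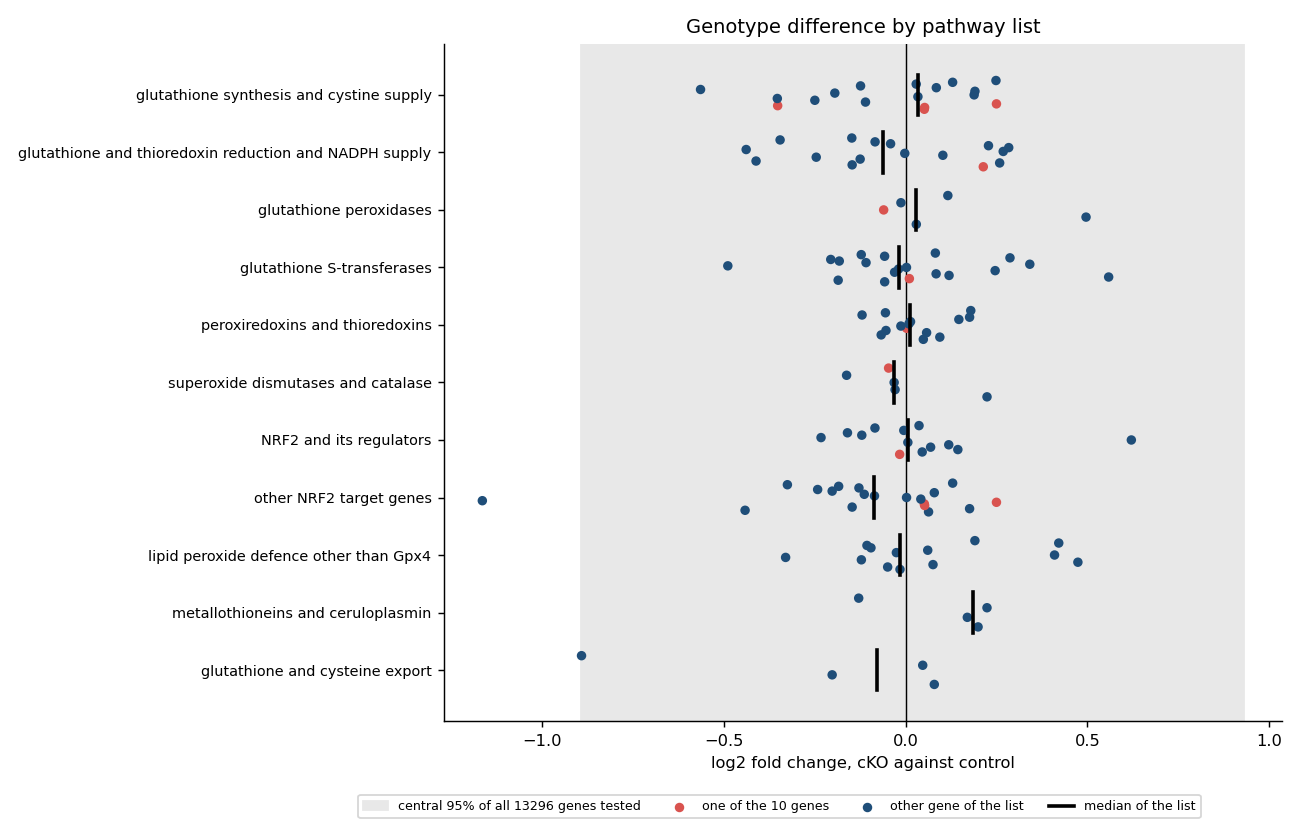
Log2 fold change, cKO against control, of each tested gene of 11 functional lists (red, one of the 10 genes; blue, other genes), with the median of each list as a black bar and the central 95% of all 13296 genes as a grey band. List medians lie between -0.086 and 0.18, and Osgin1, at -1.17 and at 0 counts in 2 cKO libraries, lies outside the band.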

How the data were processed

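Astro-TRAP RNA was sequenced by Smart-seq2 as single-end reads. Per the labels and the study's methods, the authors trimmed reads with cutadapt 1.15 and quantified them with kallisto 0.44.0 against GENCODE vM17 (GRCm38). They deposited estimated counts summed per gene, and for their own test summed the reads of protein-coding transcripts. Of 18 columns, the 7 whose IP sample and genotype a source names were used and 11 were not, so IP was not compared with input. Columns carry no animal or replicate number.

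Estimated counts were rounded to whole numbers. In edgeR 4.0.16 (R 4.3.3) they were filtered by filterByExpr, scaled by TMM and fitted by quasi-likelihood with genotype as the only term, Benjamini-Hochberg adjusted over all tested genes. CPM are TMM-scaled, and log2 CPM used a prior count of 2. Kallisto divides reads shared between transcripts, so an estimate need not be whole: those of 3 of the 10 genes (Gclc, Gsr and Cat) were whole in every library (tolerance 1e-06), and the other 7 were not in some. The lowest chi-square per degree of freedom between libraries of a group was 30.9, above sampling noise. With 3 against 4 libraries an exact permutation test cannot go below p = 0.0571, so none was used.

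The genes and lists were chosen with earlier results of these data known. Named were all 10 genes, list genes past the threshold or, up to 3 per list, of lowest unadjusted p under 0.05, read-sharing copies, and Slc2a1. Keap1, Slc3a2, Nqo1, Hmox1, Prdx1, Gsta4, Bach2 and Osgin1 were named after their values were seen. Alternatives were the edgeR exact test, DESeq2 1.42.0, limma 3.58.1 (trend), other scalings and filters, marker covariates and leaving out each library. Scripts were tested on simulated data. Gene positions and sequences are RefSeq's for GRCm38.p6. Transcript lengths were not used, so levels are not compared between genes.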

Additional observations from a re-analysis of the deposited data

Results flagged for a closer look

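Gclc, the catalytic subunit of glutamate-cysteine ligase, was at 35.5 CPM in the cKO library AstroTRAP_9, and the other 3 cKO libraries lay between 27.1 and 28.2 CPM. That library was far from the others for the spread of its group. Among 22 sets of values examined in this way, 1 stood apart, where 1.1 would do so by chance at 1 in 20. Gclc was counted in whole reads in every library.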

How the results depend on the processing

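The count of the 10 genes past the adjusted threshold was 0 under every alternative run, as was that of the listed pathway genes, and the lowest adjusted p of the 10 was 0.274. Over all genes, 6 passed, against 18 by the edgeR exact test and 21 by DESeq2, and 4 to 6 when single libraries were left out. The median log2 fold change of the 10 genes moved from 0.0062 to -0.19 with the oligodendrocyte markers as a covariate, where Gss, Nfe2l2 and Prdx6 had unadjusted p under 0.05, 3 of 10 beside 14.9% of all genes. It ranged from -0.11 to 0.097 with single libraries left out, and the genes without overlap numbered 0 to 2.

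Differences near 0 changed sign. With the oligodendrocyte covariate the log2 fold change was -0.057 for Gclc, -0.17 for Gclm, -0.37 for Gstm1, -0.42 for Prdx6, -0.29 for Gstm5, -0.31 for Hmox1 and -0.28 for Prdx1. Scaled to astrocyte genes it was 0.053 for Cat, 0.039 for Gpx4, 0.11 for Nfe2l2, 0.096 for Slc2a1 and 0.014 for Slc3a2. With an astrocyte covariate, added after seeing the data, Nfe2l2 was at 0.057. By limma-trend Gstm1 was at -0.021, Prdx6 at -0.040 and Hmox1 at -0.027. With upper-quartile factors Gstm1 was at -0.0014 and Prdx6 at -0.0085, and Prdx6 was at -0.011 with library size and at -0.0014 without a filter. The causes were not tested.

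Leaving out single libraries gave log2 fold changes of -0.19 to 0.048 for Cat, -0.054 to 0.097 for Gclc, -0.083 to 0.17 for Gclm, -0.22 to 0.13 for Gstm1, -0.18 to 0.15 for Nfe2l2, -0.25 to 0.12 for Prdx6, -0.038 to 0.011 for Slc2a1, -0.24 to 0.036 for Slc3a2, -0.082 to 0.20 for Gstm5, -0.63 to -0.19 for Nqo1, -0.20 to 0.30 for Hmox1 and -0.12 to 0.15 for Prdx1. Gsr (0.14 to 0.35), Slc7a11 (0.074 to 0.42), Gss (-0.53 to -0.17) and Gpx4 (-0.094 to -0.040) kept their sign. No paired analysis was possible because the columns carry no replicate numbers.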

Other observations

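The order of the libraries seen for 6 of the 10 genes was also present in other genes of the listed pathways. Of the 112 other genes tested, 25 had AstroTRAP_17, _19 and _5 as their 3 lowest libraries, beside 10.2% of all genes. They included 6 glutathione S-transferases (Gstk1, Gstm4, Gstm5, Gstm6, Gsto1 and Gstt2), the peroxiredoxins Prdx1 and Prdx2, the cystine exchanger subunit Slc3a2, glutamine synthetase (Glul) and the metal-binding proteins Mt1 and Mt2. Mt1 measured 3589 CPM in AstroTRAP_19, 3790.0 CPM in AstroTRAP_5 and 4131 CPM in AstroTRAP_17, and 6259 to 9697 CPM in the other 4 libraries. None of the 5 glutathione peroxidases and none of the 10 oligodendrocyte, 9 microglia or 7 vascular markers tested had this order, and 1 of 10 neuron markers (Gad1) did. These are counts noticed in the same libraries, and no test was made of them.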
